A study of Mus musculus with 2 samples.

Results

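The genes described here are 10 genes of the contractile and cytoskeletal actin filament: the striated actins Acta1 and Actc1, the cytoplasmic actins Actb and Actg1, the tropomyosins Tpm1 to Tpm4, and the striated alpha-actinins Actn2 and Actn3. They were taken by symbol from the 16190 Ensembl genes of the count table, and all 10 had a row. The table holds 2 libraries, both from satellite cells, the muscle stem cells, isolated from the TA (tibialis anterior) muscle and labelled C57BL/6. The control library has the genotype Cipc-flox/flox (title Cipc+/+) and the other has Cipc-scko (title Cipc-/-), a name that the labels do not spell out. They are called flox/flox and scko below. The Cre driver, the age of the mice, whether animals were pooled and whether the cells were cultured are not stated in the labels. Total counts were 16830168 for scko and 16145870 for flox/flox. As each group is 1 library, the differences have no replicate check and no p-value, and every interval is one of counting error alone. The values compare these libraries, not the genotypes.

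The targeted gene Cipc, which encodes a repressor of the CLOCK and BMAL1 pair, had 594 counts in scko and 1907 in flox/flox, a log2 ratio of -1.61 (95% counting interval -1.74 to -1.47). The libraries also differed in sex-linked genes: Xist, which coats the inactive X, had 4 counts in scko and 3898 in flox/flox, and the Y-linked Ddx3y had 511 and 0. Sex and genotype cannot be told apart here. Of 12 satellite cell and myoblast markers 11 had a row and none was at 0 in either library. By the rule for calls given below, 5 were higher in scko (all genes 21.2%) and 1 was lower (15.9%). The satellite cell factor Pax7 had 998 and 43 counts in scko and flox/flox, Myf5 had 1062 and 1042, Sdc4 had 1799 and 2985, and Megf10, the lower one, had 569 and 2960.

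Actin polymerises into the thin filament of the sarcomere and into the stress fibres and cortex of every cell. Tropomyosins are coiled-coil dimers that lie along the filament and control access of myosin and of severing proteins to it. Alpha-actinins are antiparallel dimers that crosslink filaments, at the Z-disc in muscle and in stress fibres elsewhere. In skeletal muscle development cardiac actin Actc1 is expressed early and skeletal actin Acta1 dominates the adult fibre, while Actb and Actg1 are the cytoplasmic actins. Each tropomyosin gene makes muscle and cytoskeletal forms through alternative promoters and exons, which counts per gene do not separate.

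The actin genes are close in coding sequence, and the first 60 coding bases show where they part. They are printed 5′ to 3′ from GENCODE vM21 transcripts, with capitals for each base that a global alignment did not pair with an identical base of Acta1.
Acta1: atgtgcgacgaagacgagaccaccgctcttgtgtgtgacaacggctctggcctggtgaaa
Actc1: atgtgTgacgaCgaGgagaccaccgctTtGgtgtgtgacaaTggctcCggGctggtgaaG
Acta2: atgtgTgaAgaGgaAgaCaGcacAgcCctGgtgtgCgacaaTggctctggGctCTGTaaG
Actb: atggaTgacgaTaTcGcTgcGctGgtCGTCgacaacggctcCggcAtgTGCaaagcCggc
Actg1: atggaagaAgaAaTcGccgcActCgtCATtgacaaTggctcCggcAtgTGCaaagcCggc
Actc1 differed from Acta1 at 9 of these bases, the smooth muscle actin Acta2 at 17, Actb at 17 and Actg1 at 16. Bases of Acta1 left without a partner are in none of these counts, and the rows need not line up by position. The coding sequences of Actb and Actg1 have 1125 bases, against 1131 for Acta1. Over the aligned bases of the whole coding sequence Acta1 was 86.3% identical to Actc1, 85.4% to Acta2, 85.2% to Actb and 84.0% to Actg1. The longest run of identical bases was 29 between Acta1 and Actc1, also 29 between Acta1 and Acta2, and 77 between Acta1 and Actb. The cytoplasmic pair Actb and Actg1 was 88.6% identical, the closest of the 15 actin pairs compared.

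Of the 10 genes, 6 were called higher in scko (Acta1, Actc1, Tpm1, Tpm2, Actn2 and Actn3) and 0 lower. A gene was called when the ratio of its CPM (counts scaled to a fixed library total, with TMM factors between libraries) was at least 2-fold and the counting interval excluded equality. By the same rule 21.2% of the 12874 genes past the filter on low counts were higher and 15.9% were lower, 37.2% in either direction. All 10 genes passed that filter. Acta1, Actc1 and Actn2 passed a 10-fold limit, which 8.05% of all genes past the filter also passed. The median log2 ratio (scko over flox/flox) of the 10 genes was 1.71, beside 0.0062 over all genes past the filter. Together the 10 genes took 2.16% of all counts in scko and 0.572% in flox/flox.

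**Figure D1:**
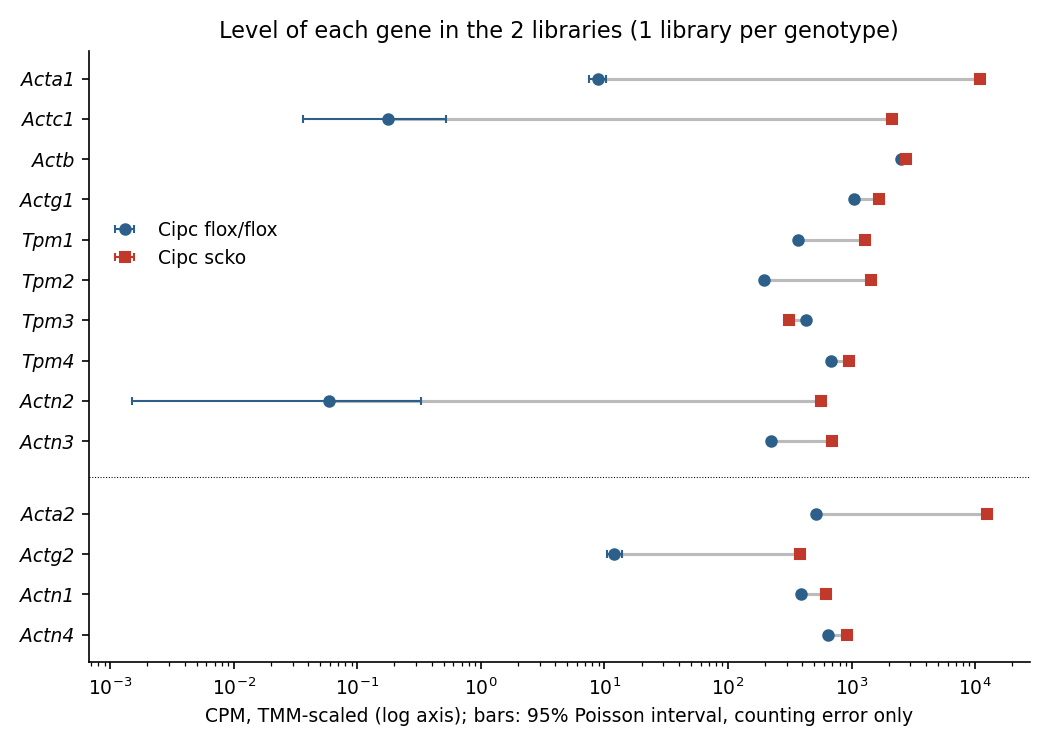
Level of each gene in CPM on a log axis, with circles for the flox/flox library, squares for the scko library and bars for the 95% Poisson interval of the count. Acta1, Actc1 and Actn2 lie furthest apart between the libraries (log2 ratios 10.26, 13.31 and 12.62), while Actb lies at 2774 and 2499 CPM; the 4 genes under the dotted line are related genes shown for comparison.

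The striated actins differed widely between the libraries. Skeletal actin Acta1 (ENSMUSG00000031972, GRCm38 chr8:123891769-123894751) had 174484 counts in scko and 149 in flox/flox, or 10868 and 8.80 CPM. It was the 4th most counted gene of the scko library and ranked 9246th in flox/flox. Its log2 ratio was 10.26 (10.04 to 10.51), and 0.544% of genes passing the filter lay as high or higher. Cardiac actin Actc1 (ENSMUSG00000068614, chr2:114047282-114053548) had 33931 counts in scko and 3 in flox/flox, or 2114 and 0.177 CPM. Its log2 ratio was 13.31 (11.99 to 15.82), and only 8 of the 12874 genes, itself included, lay as high. With 3 control counts the size of that ratio depends on the prior count and the unit. Over 7 alternative scalings, prior counts and units it ran from 10.13, with the deposited FPKM and a pseudocount of 1, to 13.35. With a prior count of 5 it was 12.10.

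Neither cytoplasmic actin reached 2-fold, and Actg1 lay further from equality than Actb. Actb (ENSMUSG00000029580, chr5:142903115-142906754), the actin often used as a reference gene, had 44538 counts in scko and 42306 in flox/flox, or 2774 and 2499 CPM. Its log2 ratio was 0.15 (0.13 to 0.17), under the 2-fold limit, as were 62.7% of all genes past the filter. It ranked 19th by counts in scko and 18th in flox/flox. Actg1 (ENSMUSG00000062825, chr11:120345690-120348542) had 27022 and 17789 counts, or 1683 and 1051 CPM. Its log2 ratio of 0.68 (0.65 to 0.71) excluded equality by counting error and stayed under 2-fold. For Actb the ratio moved between 0.014 and 0.19 over 7 alternative scalings, so its distance from 0 is about as large as the range over scalings.

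**Figure D2:**
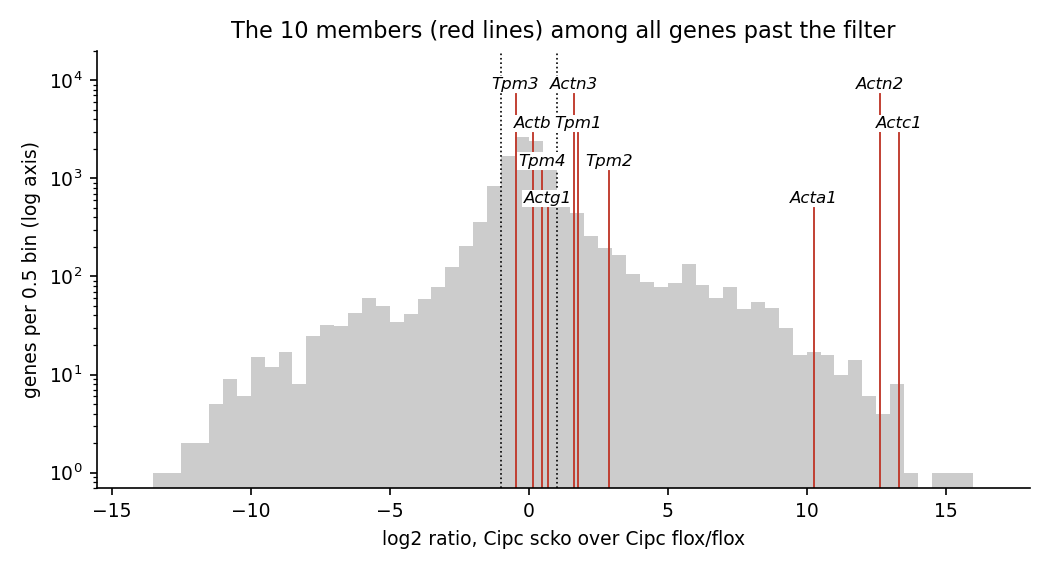
Log2 ratios of scko over flox/flox for the 12874 genes past the filter, as a histogram with a log count axis, with red lines at the 10 genes and dotted lines at 2-fold. Tpm3, Actb, Tpm4 and Actg1 fall between the dotted lines, Actn3, Tpm1 and Tpm2 fall between 1.63 and 2.88, and Acta1, Actn2 and Actc1 lie above 10.

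The smooth muscle actins, read beside the 10 genes, went with the striated ones. Acta2, the vascular smooth muscle actin that myoblasts can also express, had 199588 counts in scko and 8686 in flox/flox (log2 4.60, 4.57 to 4.63). It was the 3rd most counted gene in scko, one place above Acta1 by counts. Per length the order in scko was the other way. Acta1 lay 1.23 times above Acta2 per kb of the longest transcript and 1.09 times by FPKM. Actg2, the enteric smooth muscle actin, had 6152 and 203 counts (log2 4.99, 4.80 to 5.21). In flox/flox, the level of Acta2 per kb of its longest transcript was 41.4 times that of Acta1, 252.2 against 6.09 CPM per kb.

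The tropomyosins split by gene. Tpm2 (ENSMUSG00000028464, chr4:43514711-43523765), the beta-tropomyosin of muscle, had 23142 counts in scko and 3310 in flox/flox, or 1441 and 195.6 CPM (log2 2.88, 2.83 to 2.93). Tpm1 (ENSMUSG00000032366, chr9:67022590-67049406), which makes the fast muscle alpha-tropomyosin and several cytoskeletal forms, had 20575 and 6300 counts, or 1282 and 372.2 CPM (log2 1.78, 1.74 to 1.82). Both were called higher in scko. Tpm4 (ENSMUSG00000031799, chr8:72134975-72153142), a mainly cytoskeletal tropomyosin, had 15262 and 11451 counts, or 950.6 and 676.5 CPM (log2 0.49, 0.46 to 0.53). Tpm3 (ENSMUSG00000027940, chr3:90072649-90100902), the source of the slow muscle alpha-tropomyosin and of cytoskeletal forms, had 4987 and 7304 counts, or 310.6 and 431.5 CPM (log2 -0.47, -0.53 to -0.42). Tpm3 was the only one of the 10 genes with a ratio below 0, and neither it nor Tpm4 reached 2-fold.

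The striated alpha-actinins were both higher in scko, from very different control levels. Actn2 (ENSMUSG00000052374, chr13:12269426-12340760), the Z-disc alpha-actinin of cardiac muscle and all skeletal fibres, had 9062 counts in scko and 1 in flox/flox, or 564.5 and 0.0591 CPM. Its log2 ratio was 12.62 (10.74 to 18.53), and over 7 alternatives it ran from 6.85 with FPKM and a pseudocount of 1 to 12.66. Actn3 (ENSMUSG00000006457, chr19:4861216-4877909), the alpha-actinin of fast glycolytic fibres, had 11156 and 3798 counts, or 694.9 and 224.4 CPM (log2 1.63, 1.58 to 1.68). Per kb of the longest transcript, flox/flox held 77.7 CPM per kb of the fast-fibre gene beside 0.0196 of the general one. The non-muscle alpha-actinins did not reach 2-fold: Actn1 had 9893 and 6568 counts (log2 0.67, 0.62 to 0.71) and Actn4 had 14849 and 10944 (log2 0.52, 0.48 to 0.55).

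Shares within a family do not depend on how the libraries are scaled to each other. Of the counts of Acta1, Actc1, Actb and Actg1, the striated pair took 74.4% (exact binomial 95% interval 74.3% to 74.6%) in scko and 0.252% (0.214% to 0.296%) in flox/flox. Of the counts of Actn1 to Actn4, the striated pair took 45.0% (44.5% to 45.4%) in scko and 17.8% (17.3% to 18.3%) in flox/flox. Among tropomyosin counts Tpm2 took 36.2% in scko and 11.7% in flox/flox, and Tpm1 took 32.2% and 22.2%. Tpm4 took 23.9% and 40.4%, and Tpm3 took 7.80% and 25.8%. With the smooth muscle actins Acta2 and Actg2 in the denominator, the striated share of actin counts in scko was 42.9%.

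**Figure D3:**
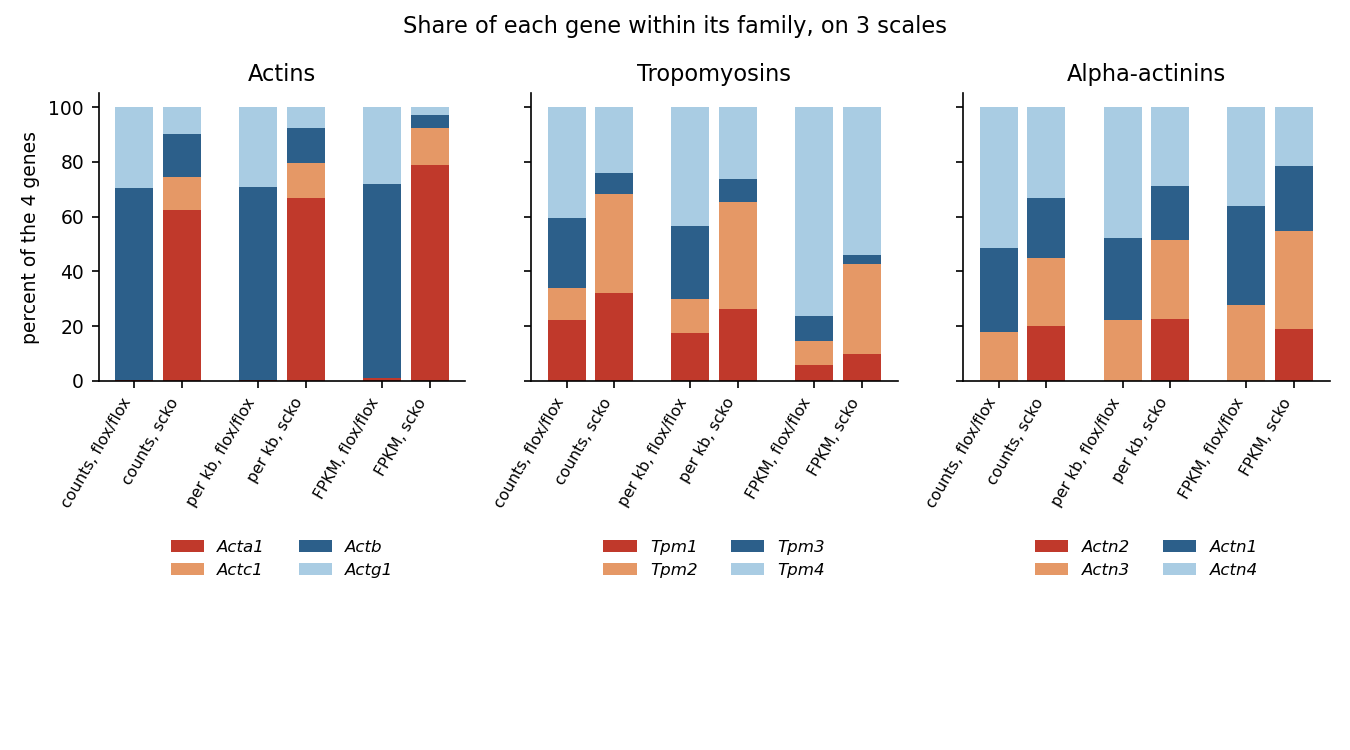
Percent of each gene within its family of 4 in the flox/flox and scko libraries, from counts, from counts per kb of the longest protein-coding transcript, and from the deposited FPKM. The striated actins fill 74.4% of the actin bar in scko and 0.252% in flox/flox by counts, and Tpm4 fills 23.9% of the scko tropomyosin bar by counts but 54.0% by FPKM.

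Levels can be compared between genes only per length, and the length used changed the order. The deposited FPKM imply a length for each gene, and for 7 of the 10 genes it matched within 0.5% the sum of all distinct annotated exons of GENCODE vM21, overlapping exons counted each time. Over 12982 genes with at least 20 counts this held for 68.3%, against 10.2% for the union of exons. The implied length was 16538 bases for Tpm1, whose longest protein-coding transcript has 2890, and 11776 bases for Tpm3, whose longest has 2233. For Actb it was 5902 bases, longer than the 3640 bases that the gene spans on the chromosome. For Acta1, with 2 annotated transcripts, it was 1433 bases against a transcript of 1446. FPKM of genes with many annotated transcripts are therefore low against those of genes with few, while ratios of 1 gene between the libraries are not touched.

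**Figure D4:**
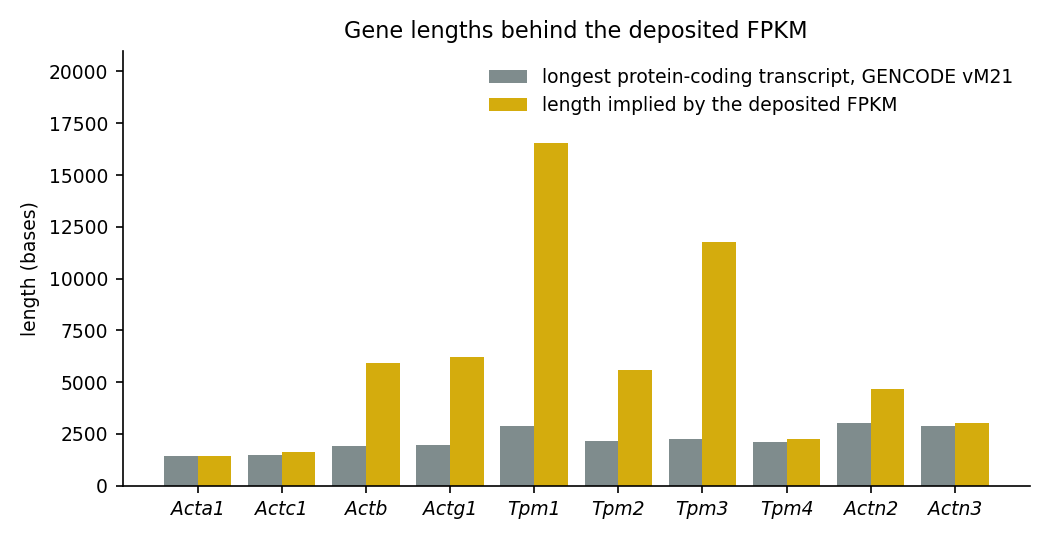
Length in bases of the longest protein-coding transcript of each gene (grey) and the length implied by its deposited FPKM (yellow). The implied length is over 2 times the transcript for 5 of the 10 genes, most for Tpm1 at 5.72 times and Tpm3 at 5.27 times, and close to it for Acta1, Actc1, Tpm4 and Actn3.

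In scko, levels per kb of the longest transcript were 7516 CPM per kb for Acta1, 1445 for Actb, 1435 for Actc1 and 862 for Actg1. On the deposited FPKM scale the same genes stood at 7235, 448.4, 1246 and 257.8, so that Acta1 lay 5.20 times above Actb per kb of transcript and 16.1 times by FPKM. In flox/flox both scales put Actb first and Actg1 next, with Acta1 at 6.09 CPM per kb against 1302 for Actb. Among tropomyosins in scko, Tpm2 led per kb of transcript (662.7 CPM per kb). Tpm4 (446.7) and Tpm1 (443.5) followed and differed by a factor of 1.01. Tpm1 has 21 annotated transcripts, and the longest, used here, has 735 coding bases, beside 852 for Tpm2. By FPKM Tpm4 led at 405.7, with Tpm2 at 247.03 and Tpm1 at 73.9. Both scales put Tpm4 first and Tpm3 next in flox/flox. Among alpha-actinins Actn3 led in scko on both scales, at 240.7 CPM per kb and 218.8 FPKM. Actn4 led in flox/flox on both, at 166.8 CPM per kb and 100.4 FPKM.

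Near-identical copies bear on Actg1, Tpm3 and Tpm4. Each longest transcript was divided into every window of 100 bases, and windows found in no transcript of another gene were counted. All windows of Acta1, Actc1, Tpm1, Tpm2, Actn2 and Actn3 were unique at that length, as were 98.9% of those of Actb and 90.6% of those of Tpm4. At 50 bases Acta1 shared 28 of 1397 windows with Actb and 10 with Actg1, and shared none with Actc1 or Acta2. For Tpm3 54.3% of the 100-base windows were unique, and 976 of 2134 occurred in Tpm3-rs7, a retrogene on chr14:113314608-113316754. Tpm3-rs7 itself was listed with 1370 counts in scko and 2617 in flox/flox (log2 -0.86, -0.95 to -0.76). Summed with it, Tpm3 had a log2 ratio of -0.57 (-0.61 to -0.52).

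For Actg1 48.9% of the windows were unique, and 823 of 1853 occurred in the processed pseudogene Gm12715, which had no row in the count table. The listed pseudogene Actg-ps1 had 102 and 78 counts, and summing it with Actg1 left the ratio at 0.68. For Tpm4 155 of 2029 windows occurred in the pseudogene Gm7809, which had no row either. How the authors' counting treated reads that fit several genes is not given in the sources used here, so the separate values of Actg1 and Tpm3 are uncertain. Whether counting used strand is not given either. Exonic bases were shared by Tpm4 with the antisense gene Gm26586 (134 bases) and by Actg1 with the miRNA genes Gm23419 and Mir6935 (83 and 64 bases). None of these had a row in the count table.

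Sequence upstream of the start was read for the genes that RefSeq's table for GRCm38.p6 holds, 8 of the 10, with 2 starts for Tpm3. Actb and Actn3 had no entry, so their upstream sequence was not searched for any element. Windows ran from 250 bases before to 50 after the start, and both strands were searched. The CArG box is the element bound by SRF and long studied in actin promoters. It was searched as exactly CCWWWWWWGG, where W is A or T, so stretches with a mismatch were neither counted nor marked. Exact matches occurred in 3 of the 9 windows and in 1.63% of all 32851 windows of the same length. The 3 genes were Acta1, Actc1 and Actg1, that is, both striated actins and a cytoplasmic actin whose ratio stayed under 2-fold. Their bases before the RefSeq start are shown on the gene's strand, with the exact match to the CArG box in capitals. Bases next to that start that GENCODE vM21 annotates as exon were left out, 12 for Actc1 and 47 for Actg1. The Actc1 stretch still lies within the annotated span of its gene, which reaches 114053548. For Acta1 the annotated gene ends at 123894751, so its stretch stops short of the first annotated exon base.
Acta1, chr8:123894776-123895025, minus strand: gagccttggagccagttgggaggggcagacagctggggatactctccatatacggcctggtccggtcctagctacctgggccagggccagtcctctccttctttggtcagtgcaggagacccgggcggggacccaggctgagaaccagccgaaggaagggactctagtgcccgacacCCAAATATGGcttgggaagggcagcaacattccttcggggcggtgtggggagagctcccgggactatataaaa
Actc1, chr2:114052888-114053125, minus strand: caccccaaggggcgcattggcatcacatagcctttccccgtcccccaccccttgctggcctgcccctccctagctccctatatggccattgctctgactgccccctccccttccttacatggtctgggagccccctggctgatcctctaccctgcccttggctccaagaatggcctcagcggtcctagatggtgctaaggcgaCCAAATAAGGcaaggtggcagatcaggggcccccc
Actg1, chr11:120348543-120348745, minus strand: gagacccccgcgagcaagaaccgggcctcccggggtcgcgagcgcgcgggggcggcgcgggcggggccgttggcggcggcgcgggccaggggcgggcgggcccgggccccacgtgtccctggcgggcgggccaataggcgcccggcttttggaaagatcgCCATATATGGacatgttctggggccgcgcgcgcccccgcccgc
The first base of the exact match lies at position -73 in Acta1, -47 in Actc1 and -90 in Actg1, counted from the RefSeq start. The E-box CANNTG, bound by myogenic regulators among others, occurred in all 9 windows and in 72.3% of all windows. The MCAT element GGAATG occurred in Acta1 and Tpm1 and in 14.7% of all windows. TATAAA occurred in Acta1 at position -7, in Actc1 at +34, after the start, and in 13.6% of all windows. The MEF2 site was searched as exactly YTAWWWWTAR, where Y is C or T and R is A or G. It was found in none of the 9 and in 3.19% of all windows. None of these matches overlapped another. They are matches of letters only.

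Genes of the same filaments were read from lists. No test compares the lists with each other or with all genes. Of 23 genes of filament length and turnover past the filter, 11 were higher in scko (all genes 21.2%), 1 was lower (15.9%), and the median log2 ratio was 0.93. Cap2, an actin-binding cyclase-associated protein of striated muscle, had 3675 and 1 counts (log2 11.32, 9.44 to 17.22), and the thin filament elongation factor Lmod2 had 693 and 0, at least 244-fold higher against a floor of 3 counts. The profilin gene Pfn2 was lower at 11.0 and 29.1 CPM (log2 -1.41, -1.67 to -1.16). Cfl1, the non-muscle cofilin that severs filaments, stood at 1166 and 2112 CPM (log2 -0.86), short of 2-fold.

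Of 15 Z-disc and alpha-actinin partner genes, 11 were higher (all genes 21.2%) and 1 lower (15.9%), with a median of 1.98. Csrp3, the muscle LIM protein, had 3205 and 0 counts (at least 1126-fold higher), and myotilin gene Myot, whose product binds alpha-actinin, had 335 and 0 (at least 118-fold higher). The PDZ-LIM gene Pdlim3 was lower at 209.3 and 421.2 CPM (log2 -1.01), a call that ended at -0.97 with upper quartile scaling. Fhod3, a formin of the sarcomere, stood at 13.1 and 23.6 CPM (log2 -0.85), which was not called.

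Of 28 stress fibre and cortical genes 9 were higher (all genes 21.2%), 4 lower (15.9%) and 15 neither, with a median of 0.19. Enah, which promotes filament elongation, stood at 386.4 and 7.56 CPM (log2 5.67, 5.42 to 5.94) and Tagln, an actin-bundling gene of smooth muscle, at 1320 and 35.9 CPM (log2 5.20). Ezr, which links the cortex to the membrane, went the other way at 11.0 and 420.9 CPM (log2 -5.25, -5.48 to -5.04). The myosin light chain gene Myl12b stood at 72.8 and 320.9 CPM (log2 -2.14). Other light chain genes of this list were called higher, Myl12a at 1340 and 636.8 CPM (log2 1.07) and Myl9 at 876.5 and 49.3 CPM (log2 4.15). Of 21 actin nucleation genes 1 was higher (all genes 21.2%), 10 were lower (15.9%) and the median was -0.75. The nucleator Cobl was the higher one at 85.0 and 30.9 CPM (log2 1.46), and Spire1 stood at 129.6 and 81.4 CPM (log2 0.67). The formin gene Daam2 had 0 and 862 counts, at least 273-fold lower, and the WAVE complex gene Wasf1 stood at 5.05 and 21.6 CPM (log2 -2.09).

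Of 10 regulators of SRF and its MRTF coactivators 2 were higher and 3 lower, with a median of -0.55. With 21.2% of all genes higher and 15.9% lower, the higher count is near the overall rate. Srf stood at 152.2 and 67.8 CPM (log2 1.17, 1.06 to 1.27), and of the alternatives run it missed 2-fold only on the FPKM scale with a pseudocount of 1 (0.99). Abra, which activates SRF through MRTF in striated muscle, had 248 and 8 counts (log2 4.94, 4.03 to 6.26). The kinase gene Rock1 stood at 21.6 and 55.2 CPM (log2 -1.36) and the LIM gene Fhl2 at 27.9 and 68.9 CPM (log2 -1.30).

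**Figure D5:**
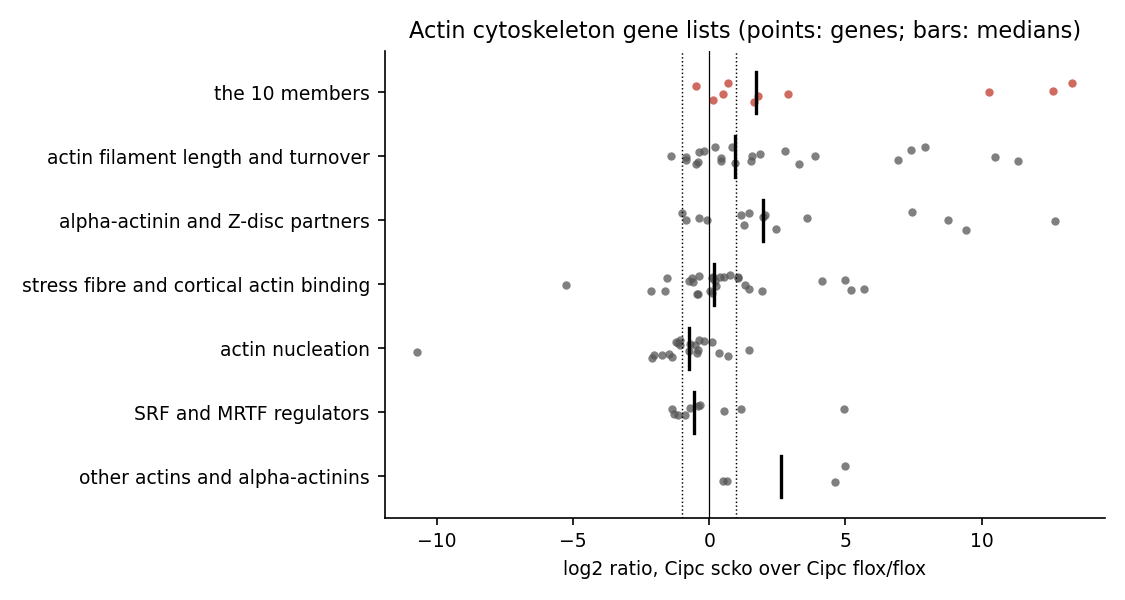
Log2 ratio of scko over flox/flox of each gene past the filter (points, jittered vertically) with the list median (bar) and dotted lines at 2-fold. The 10 genes have a median of 1.71, Z-disc partners 1.98 and filament turnover 0.93, while actin nucleation lies at -0.75 and the SRF and MRTF list at -0.55.

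Actc1, Actn2 and Acta2 are also genes of cardiac or smooth muscle, and markers of those tissues were read beside them. Of 11 cardiac markers 7 had a row, with a summed level of 2516 CPM in scko and 50.4 CPM in flox/flox, and Myl4, which embryonic skeletal muscle also expresses, made 2508 and 1.54 CPM of these. Of these 7, 3 were higher in scko (all genes 21.2%) and 3 lower (15.9%). Myh6, the atrial and adult mouse heart myosin, had 71 and 0 counts, and the cardiac troponin gene Tnni3 had 39 and 3. The cardiac factors Gata4 and Nkx2-5 were at 0 counts in scko, with 750 and 34 in flox/flox, and Nppb was at 0 and 40. Of 10 smooth muscle and pericyte markers 7 had a row, with a summed level of 14186 and 783.7 CPM, of which Acta2 itself made 12432 and 513.2 CPM. Of these 7, 5 were higher in scko (all genes 21.2%) and 1 (15.9%), the pericyte gene Cspg4, was lower at 7 and 491 counts. What part cells of these types had in the actin and alpha-actinin values was not tested. Of 10 mature fibre markers 8 were higher in scko (all genes 21.2%) and 0 lower (15.9%), with a summed level of 1362 and 44.8 CPM. The largest terms in scko were Atp2a1 (600.3 and 11.2 CPM), Ryr1 (345.8 and 33.0) and Mb (292.9 and 0.118). The fibre myosins Myh1, Myh4 and Myh2 stood at 31.3, 2.12 and 0.498 CPM in scko. Myod1 and Myog, regulators of myogenesis, had 19132 and 44286 counts in scko against 1916 and 53 in flox/flox. In bulk RNA, more cells of a type and more RNA per cell cannot be told apart. The fibroblast list summed to 3033 and 1441 CPM, with 3 genes higher (all genes 21.2%) and 2 lower (15.9%). The 3 higher were Col3a1 (34958 and 14379 counts), Col1a1 (7196 and 1957) and Mfap5 (25 and 0). The 2 lower were Dcn (1 and 142 counts) and Pdgfra (11 and 147). The endothelial list summed to 12.9 and 2.07 CPM, and the macrophage and leukocyte list to 6.17 and 47.3 CPM.

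Over the chromosomes that hold the 10 genes, the median log2 ratio of all genes past the filter ran from -0.12 on chromosomes 3 and 11, with Tpm3 and Actg1, to 0.25 on chromosome 9, with Tpm1. It was 0.23 on chromosome 4, with Tpm2.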

How the data were processed

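RNA of satellite cells was sequenced in 2 libraries, Cipc-flox/flox (control) and Cipc-scko. Whole-number counts for each Ensembl gene, and FPKM, were deposited for both libraries, per the file headers. HISAT2 2.0.4, StringTie 1.3.0, CASAVA and GRCm38 are named without roles, per the submitters' processing notes. The counting tool and annotation release are not stated in any label or header. FPKM are the counts rescaled and served for levels between genes and as an alternative.

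Symbols, exons and transcripts came from GENCODE vM21 (GRCm38); 16116 of 16190 identifiers had a symbol. Counts were scaled with TMM factors (edgeR 4.0.16, R 4.3.3). The filter on low counts asked for 20 counts over both libraries together and a CPM of 1 in either. Log2 ratios used a prior count of 0.5 per library; their 95% intervals are exact binomial (Clopper-Pearson) intervals of the split of counts. They cover counting error only: no molecular identifiers are known of, and PCR copies are not separate molecules. No p-value was computed. A gene at 0 was given a bound against 3 counts in that library. That floor is a one-sided limit, so such a bound can lie above the lower end of the two-sided interval.

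Copies were sought with BLAST+ 2.17.0 among transcripts (95% identity over 80% of the shorter). Coding sequences were aligned with Biopython 1.88. Simulated data of the same depths were used to test how genes were called.

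The members and lists were chosen with earlier results of these data known. Named were the 10 genes, related actins and alpha-actinins, their copies, Cipc, and of each list the 2 highest and 2 lowest genes with at least 5 CPM. Marker genes, Xist, Ddx3y, Myl12a and Myl9 were named outside that rule, after their values were seen. No gene was named for likeness of pattern, since 2 libraries give each gene 1 ratio.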

Additional observations from a re-analysis of the deposited data

How the results depend on the processing

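The alternatives tried were library totals or size factors (DESeq2 1.42.0) for scaling, the upper quartile or totals without mitochondrial genes, the 10 members and the 10 most counted genes, FPKM with a pseudocount of 0.1 or 1, a prior count of 5, other filters, fold limits and wider intervals. The count of members called higher was 6 under all but the fold limits (7 at 1.5-fold, 4 at 4-fold), and 0 were lower under every one. Of 261 alternative values of 37 named genes, 259 kept their call, 2 lost it (Pdlim3 and Srf, given above) and 0 changed sign. With library totals the all-gene median shifted by -0.14, and the share of calls in the higher direction was 50.8% (57.1% with TMM). Over all genes 1479 were higher with FPKM and a pseudocount of 1 and 1608 at 4-fold, against 2732. With the lower direction at 2053, there were 3318 at 1.5-fold, 860 at 4-fold and 1116 under an assumed 0.4 coefficient of variation; the fold limit or interval itself sets these. The Z-disc list median was 1.32 with FPKM and a pseudocount of 1.

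Shares moved with length, which these units divide by. By FPKM the striated share of actin was 92.3% in scko and 1.04% in flox/flox, and per kb of the longest transcript, a scale chosen after seeing the data, 79.5% and 0.336%. It was 42.9% in scko with Acta2 and Actg2 counted. The striated share of alpha-actinin was 54.9% and 27.9% by FPKM and 51.5% and 22.3% per kb. For Tpm1 the shares in scko and flox/flox were 9.83% and 5.67% by FPKM and 26.2% and 17.6% per kb. For Tpm2 they were 32.9% and 8.85%, and 39.2% and 12.3%. For Tpm3 they were 3.35% and 9.23%, and 8.22% and 26.5%. For Tpm4 they were 54.0% and 76.2%, and 26.4% and 43.6%. On all 3 scales Tpm1 and Tpm2 had a larger share in scko and Tpm3 and Tpm4 a smaller one.

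No paired analysis was possible because each group has 1 library, which also means that no replicate was left out. Depth limits the ratios of Actc1 and Actn2, with 3 and 1 control counts.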
